A study of Mus musculus with 6 samples.

Results

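The interferon-response genes of 3 untreated mouse mammary epithelial cell lines were compared. Members were chosen by gene symbol alone, from a fixed pattern of symbols that was written with earlier results of these data known. Of the 11417 listed genes, 57 matched it. They were 3 RNA sensors, 9 transcription factors, Isg15, 2 IFIT proteins, 5 oligoadenylate synthetases, 6 other antiviral effectors, 3 IFITM proteins, 6 guanylate-binding proteins, 9 IFI proteins, 5 interferon-inducible PARPs, and a last group of 8 made of 7 other PARPs and Isg20l2. The pattern works on names, so this last group came in by name although its genes are known for other work. The pattern also names Usp18, Rsad2, Mx1 and Mx2, which were not analysed here.

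Each line was sequenced as 2 libraries of poly(A) RNA, 6 in all. BC44 was grown in RPMI1640 with 10% serum and 5 µg/ml insulin, HC11 likewise but with EGF (epidermal growth factor) added at 10 ng/ml, and C57MG in DMEM GlutaMAX with 10% serum and 10 µg/ml insulin. All cells grew on plastic in 10 cm dishes without treatment, and RNA was taken on day 2 after seeding. Each line stands for itself, and the line and its medium cannot be told apart (for BC44 and HC11 the media differ in EGF alone). The labels do not say whether the libraries of a line came from separate cultures, so p-values measure only the spread between these libraries, which may be technical.

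Interferons are cytokines that cells release on sensing foreign nucleic acid. Type I interferons bind the receptor IFNAR, whose kinases JAK1 and TYK2 phosphorylate STAT2 among others. It joins IRF9 in a complex that binds the interferon-stimulated response element (ISRE), a repeat of GAAA-type units in promoters of antiviral genes. Interferon gamma acts through its own receptor IFNGR, with JAK1 and JAK2, on the gamma-activated site (GAS). Many of the induced genes also have a basal level in cells to which no interferon was added, and that basal level was measured here.

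To show what the members share besides their names, the RefSeq promoter windows of build GRCm38.p6 were searched, each from 250 bases before to 50 bases after a start site. A window was found for 45 of the 57 members. The ISRE core was searched as GAAA, any 2 bases and GAAA again, and the GAS core as TTCNNNGAA, both on both strands and with overlapping matches allowed. The ISRE core was present in 21 of 45 members (46.7%), against 324 of 9074 genes of the deposited table (3.57%) and 1131 of all 32851 windows (3.44%). The GAS core was present in 13 of 45 members (28.9%), against 761 of the 9074 genes (8.39%) and 2726 of all windows (8.3%). These are matches of letters and not measured binding.

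The following stretches are shown because their genes span the patterns described later, with the ISRE core in capitals and each stretch read 5′ to 3′ along its gene's strand. Isg15 (chr4:156200830-156200941, minus strand) holds 3 overlapping cores, and Oas1a (chr5:120907526-120907590, minus) holds 2. Oas3 (chr5:120777680-120777779, minus), Ifi203 (chr1:173942493-173942572, minus) and Stat2 (chr10:128270248-128270330, plus) hold 1 each, and Gbp3 (chr3:142559954-142560043, plus) holds 2 that overlap. All 6 of these genes had their highest mean in C57MG. Gbp2 (chr3:142620559-142620658, plus), Gbp2b (chr3:142594665-142594764, plus) and Ifit1 (chr19:34640740-34640858, plus) had theirs in HC11.
Isg15: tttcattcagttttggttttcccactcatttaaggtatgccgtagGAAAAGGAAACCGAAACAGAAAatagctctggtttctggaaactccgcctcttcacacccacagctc
Oas1a: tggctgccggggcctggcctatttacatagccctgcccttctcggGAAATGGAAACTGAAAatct
Oas3: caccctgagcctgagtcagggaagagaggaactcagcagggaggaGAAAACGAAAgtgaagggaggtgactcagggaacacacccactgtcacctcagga
Ifi203: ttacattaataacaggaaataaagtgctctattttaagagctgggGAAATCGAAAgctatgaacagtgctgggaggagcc
Stat2: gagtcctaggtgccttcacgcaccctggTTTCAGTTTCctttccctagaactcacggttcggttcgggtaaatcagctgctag
Gbp3: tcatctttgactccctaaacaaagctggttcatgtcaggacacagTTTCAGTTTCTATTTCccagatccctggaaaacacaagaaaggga
Gbp2: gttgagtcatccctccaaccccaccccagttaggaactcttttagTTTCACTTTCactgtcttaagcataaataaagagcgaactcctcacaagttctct
Gbp2b: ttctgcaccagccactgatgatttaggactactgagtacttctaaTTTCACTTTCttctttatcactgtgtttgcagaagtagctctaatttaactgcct
Ifit1: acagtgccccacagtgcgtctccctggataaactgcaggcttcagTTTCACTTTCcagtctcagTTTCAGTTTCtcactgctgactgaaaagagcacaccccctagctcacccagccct

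The ISRE core was unevenly spread over the roles. It was in 4 of 4 guanylate-binding protein genes with a window, 4 of 5 oligoadenylate synthetase genes, 2 of 2 RNA sensor genes and 2 of 3 IFITM genes. By contrast, 2 of 7 transcription factor genes, 2 of 6 IFI genes and 1 of the 8 genes in the group of other PARPs and Isg20l2 had it. Of the 21 members with the core 12 had their highest mean in C57MG and 17 their lowest in BC44. Of the 24 without it, 12 were highest in C57MG and 14 lowest in BC44.

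**Figure D1:**
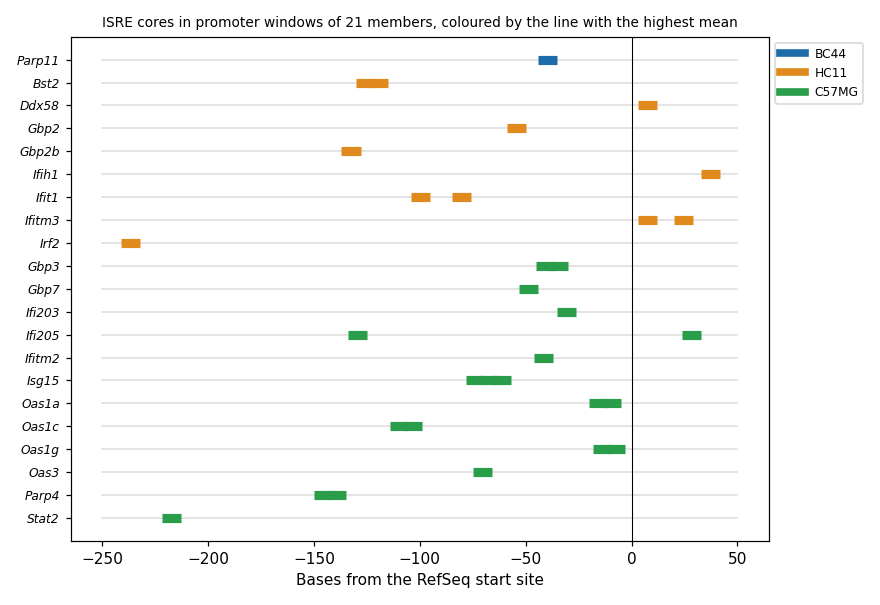
Position of each ISRE core (either strand) in the promoter windows of 21 members, in bases from the RefSeq start site, coloured by the line with the highest mean RPKM. Cores lie on both sides of the start site, and 12 of the 21 genes are coloured for C57MG.

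Levels are given as RPKM, which divides reads by gene length and by library size, with replicate 1 before replicate 2. Estimated depth was 14160000 to 18360000 reads a library, at which 3 reads on a gene of 2 kb correspond to 0.082 to 0.106 RPKM, and 9706 to 9895 genes reached 1 RPKM. Depth is estimated, so it and these floors cover counting error only. Against their label, the C57MG libraries were low in 11 listed mammary epithelial markers, which summed to 162 and 76.8 RPKM, with Epcam and Cdh1 at 0.949 and 1.09 in replicate 1 and at 0 in replicate 2. The same markers summed to 6970 and 6660 in BC44 and to 4403 and 3544 in HC11. Krt5, Krt14 and Krt17 made up most of the BC44 and HC11 sums. Krt8, at 0.038 and 0.064 RPKM in BC44 and at 144 and 148 in HC11, was next to absent from BC44, and Krt18 and Cldn3 were listed at 0 in both BC44 libraries. The 9 listed fibroblast and mesenchymal markers summed to 7641 and 7438 RPKM in C57MG, 303 and 391 in BC44, and 253 and 326 in HC11. Vim and S100a4 made up most of the C57MG sums. Fn1 made up most of the others, at 232 and 235 RPKM in BC44 and at 180 and 261 in HC11. Of 12 leukocyte markers 2 were listed, Lyz2, at 18.6 and 17.2 in C57MG and at most 0.317 in the other libraries, and Cd68, at 1.36 to 3.30 over all libraries. The part of these marker differences in the results was not tested, and fewer cells with a transcript and less of it per cell cannot be told apart in bulk RNA. Genes high only in C57MG (20 RPKM or more there and next to none in HC11) stood in BC44 replicate 2 at a median share of 2.017%, and 97.2% of these 72 genes were within 2-fold of this. The share was 0.666% in BC44 replicate 1, and in C57MG replicate 1 genes high only in BC44 were at 0.729%. With these shares subtracted, 35 members were higher in C57MG than in BC44 and 8 lower, as without.

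C57MG had the highest mean for 34 of the 57 members (59.6%, against 38.3% of all listed genes) and BC44 the lowest for 38 (66.7%, against 28.7%). HC11 was highest for 16 members (28.1%), the same share as over all genes (28.1%). BC44 was highest for 7 (12.3%, against 33.5%). Both C57MG libraries lay above the 4 others for 33 members (57.9%, against 32.3% of all genes), and both BC44 libraries lay below the 4 others for 28 (49.1%, against 19.7%). These counts cover all members, with no filter on level.

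**Figure D2:**
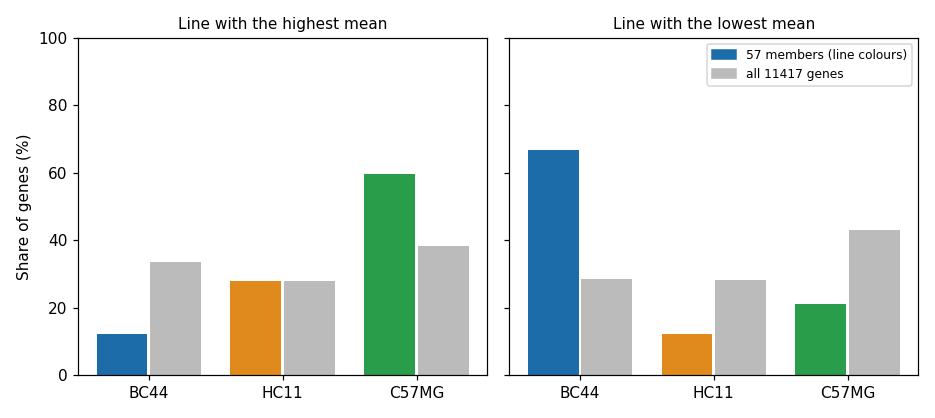
Share of genes (%, axis from 0 to 100) with their highest (left) or lowest (right) line mean in each line, for the 57 members (coloured) and all 11417 genes (grey). The members' bars for C57MG as highest line (59.6%) and BC44 as lowest line (66.7%) stand above the grey ones, and the HC11 bar on the left is level with it.

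Between BC44 and C57MG, 43 members had both C57MG libraries above both BC44 libraries (41.4% of all genes did) and 10 the reverse (46.3% of all genes), with 4 overlapping. Differences were tested with limma on log2(RPKM + 1) and Benjamini-Hochberg adjustment over 10759 genes, at an adjusted p under 0.05. On this scale the change of low genes is understated. Of the 50 members tested, 35 were higher in C57MG (34.1% of all tested genes were), 8 were higher in BC44 (37.5%) and 7 did not pass, so 43 were called in either direction (71.7%). The median log2 difference, BC44 minus C57MG, was -0.86 over the tested members and 0.04 over all tested genes. At least 2-fold differences were called in C57MG's favour for 22 (15.0% of tested genes) and in BC44's for 3 (14.7%). Of the 50, 11 passed the filter of 1 RPKM in 2 libraries only with the C57MG libraries, so the filter itself favoured a higher level there. They were Dhx58, Irf9, Oas1a, Oasl2, Xaf1, Gbp3, Gbp4, Gbp9, Ifi205, Ifi27l2a and Ifi44. All 11 are among the 35, which leaves 24, and the counts over all 57 therefore come first. Oas1a, Oasl2, Gbp3, Gbp4, Gbp9, Ifi205, Ifi27l2a and Ifi44 are also among the 22. The median includes all 11 too. For genes that passed only with the libraries of 1 line, differences from that line are given without a p. Leaving out C57MG replicate 2 left 5 members higher in BC44.

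Between HC11 and C57MG, 34 members had both C57MG libraries above both HC11 libraries (40.9% of all genes), 16 the reverse (45.1%), and 7 overlapped. Of the 50 tested, 28 were higher in C57MG (33.2% of tested genes), 14 were higher in HC11 (37.4%) and 8 did not pass, so 42 were called in either direction (70.5%). The same 11 are among the 28, which leaves 17, and Gbp2b, which passed only with HC11, is among the 14, which leaves 13. The median log2 difference, HC11 minus C57MG, was -0.44 over the tested members, these genes included, and 0.03 over all tested genes. The counts depended on both C57MG libraries. Without replicate 1 they were 17 and 7, and without replicate 2 they were 14 and 7, with 41 members then passing the filter.

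Between BC44 and HC11, 34 members had both HC11 libraries above both BC44 libraries (34.5% of all genes), 8 the reverse (38.5%), and 15 overlapped. Of the 50 tested, 16 were higher in HC11 (23.0% of tested genes), 3 were higher in BC44 (24.7%) and 31 did not pass, so 19 were called in either direction (47.7%). Gbp2b is again among the 16, which leaves 15. The median log2 difference, BC44 minus HC11, was -0.21 over the members and 0.02 over all tested genes. At least 2-fold differences were called for 9 members in HC11's favour (7.09% of tested genes) and for 0 in BC44's (5.42%). Gbp2b is also among the 9, and the median includes it. The 3 contrasts share their libraries pairwise and are not independent of each other. Isg20, Rtp4 and Isg20l2 were called in none of them.

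**Figure D3:**
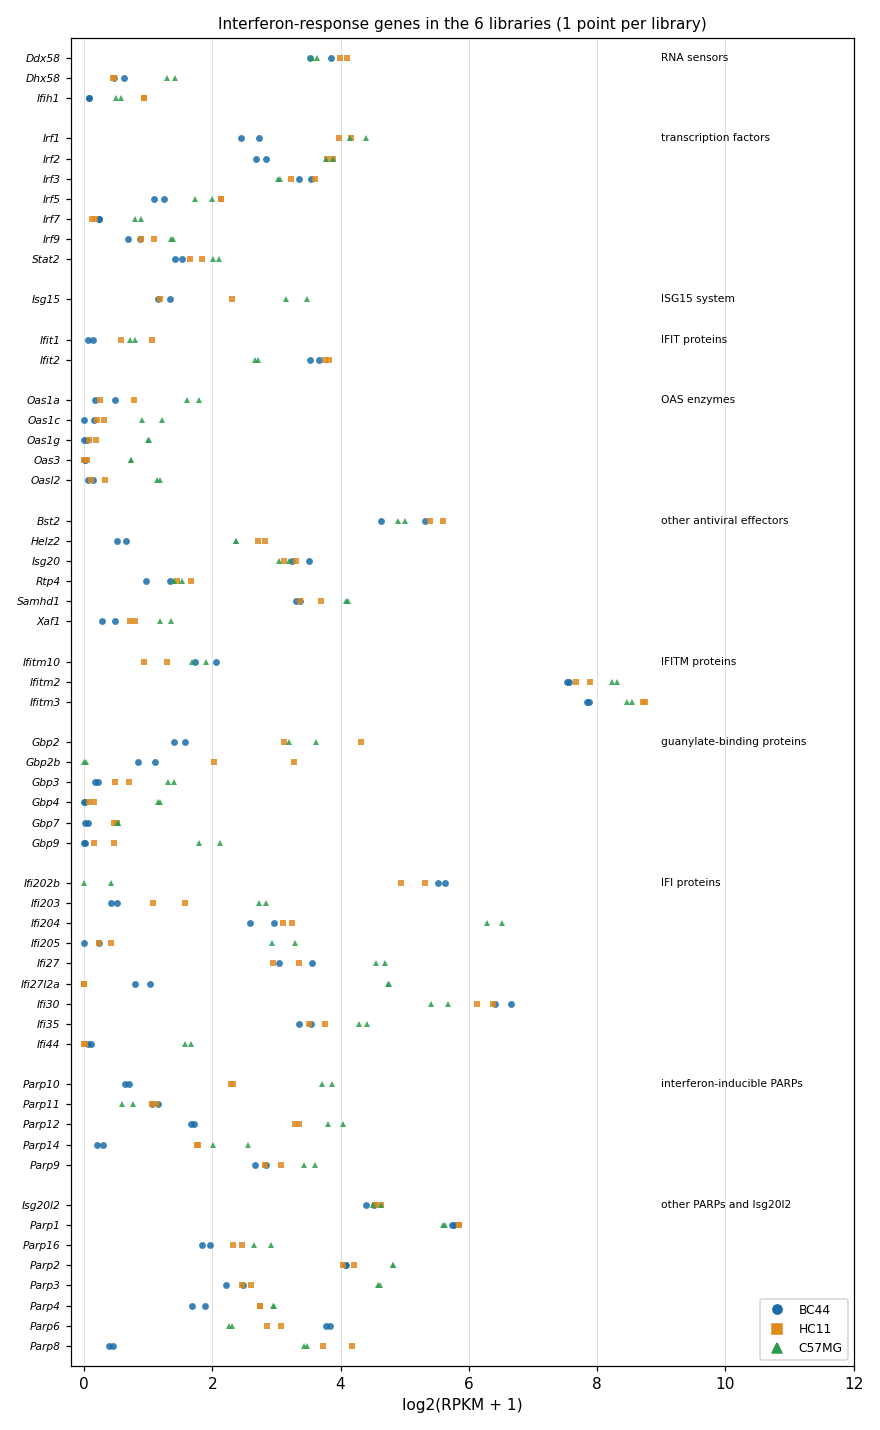
Level of the members described in the text in each library, as log2(RPKM + 1), grouped by role. The C57MG libraries stand highest for the oligoadenylate synthetases and near 0 for Ifi202b and Gbp2b.

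**Figure D4:**
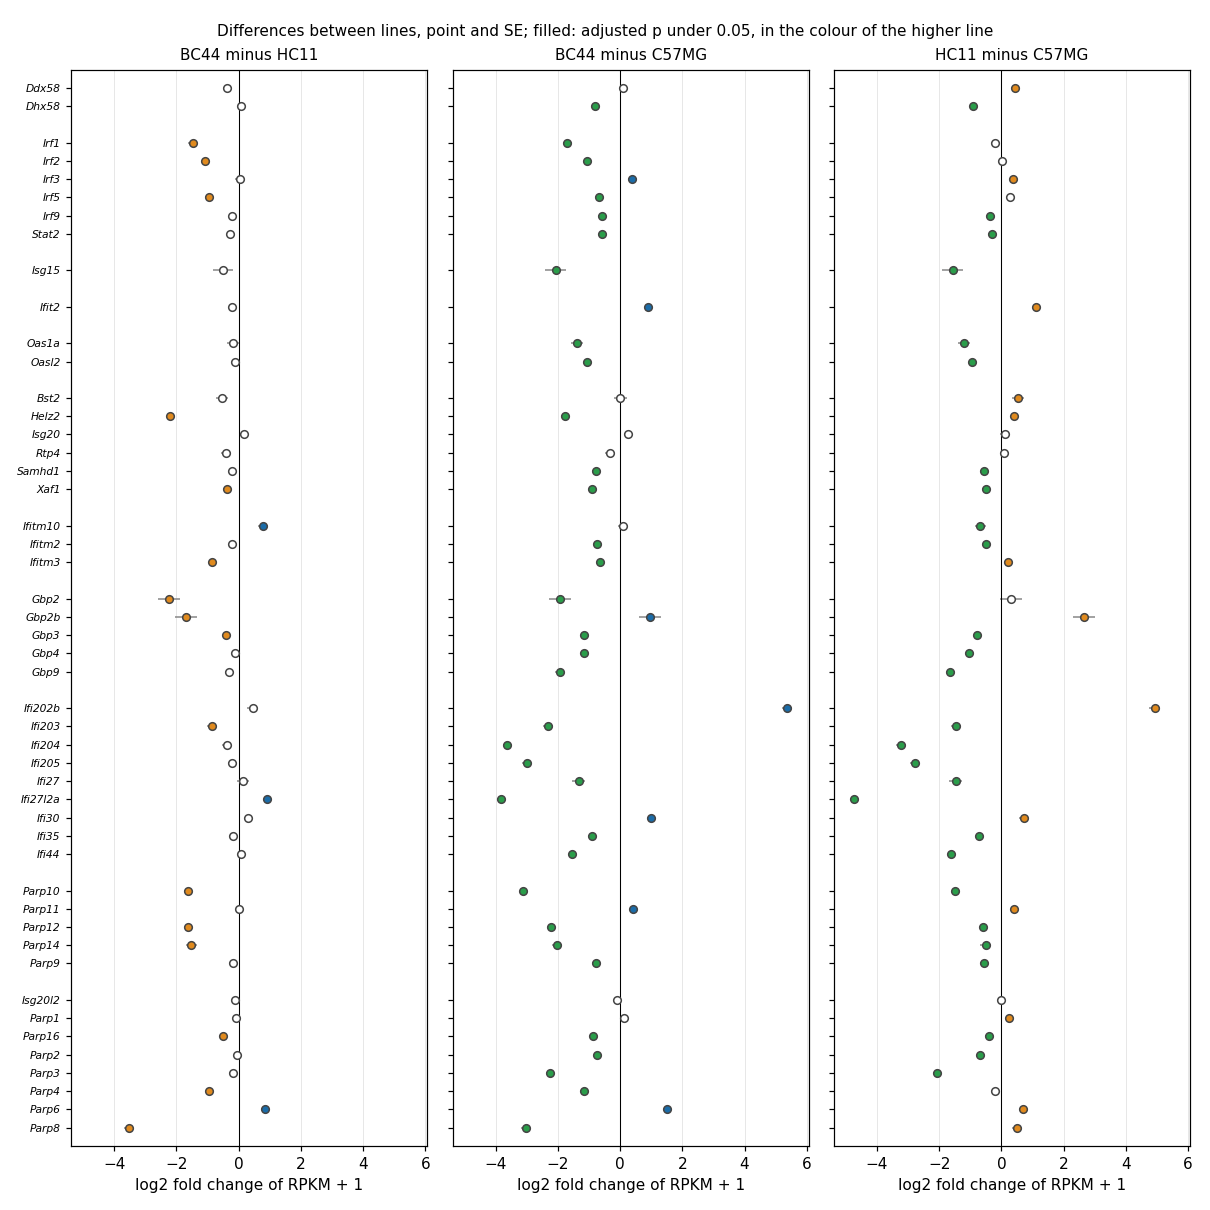
Log2 differences of RPKM + 1 with their standard errors for the tested members described in the text in the 3 contrasts, filled in the colour of the higher line where limma's adjusted p was under 0.05. Most filled points lie left of 0, on the side of HC11 in the first panel and of C57MG in the others. Ifi27l2a is listed at 0 in both HC11 libraries, so its points against HC11 depend on the added 1. For the 11 members that passed the filter only with C57MG, the filter itself favoured points on the side of C57MG. For Gbp2b, which passed only with HC11, it favoured points on the side of HC11.

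Of the RNA sensors, Ddx58 encodes RIG-I, which detects viral RNA ends. It was at 13.5 and 10.4 RPKM in BC44, at 15.0 and 16.1 in HC11, and at 10.7 and 11.4 in C57MG. The HC11 libraries were the highest, and the BC44 and C57MG values overlapped. It was higher in HC11 than in C57MG (log2 difference 0.45, adjusted p = 0.014), but not without HC11 replicate 2 (adjusted p = 0.053) or C57MG replicate 1 (adjusted p = 0.0713). Dhx58 encodes LGP2, a regulator of the other sensors, and was at 0.543 and 0.385 RPKM in BC44, at 0.362 and 0.384 in HC11, and at 1.45 and 1.67 in C57MG. BC44 lay just above HC11 with no call between them, and C57MG was above both, by 0.81 ± 0.10 (log2, SE) over BC44. Ifih1 encodes MDA5, the sensor of long double-stranded RNA. It was at 0.050 and 0.056 RPKM in BC44, at 0.903 and 0.906 in HC11, and at 0.420 and 0.485 in C57MG. All were under 1 RPKM, so it was not tested, and the order of the lines differed from that of Dhx58.

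Among the transcription factors, Stat2 and Irf9, which act together at the ISRE, were each highest in C57MG. Stat2 was at 1.90 and 1.67 RPKM in BC44, at 2.16 and 2.57 in HC11, and at 3.02 and 3.29 in C57MG, with no overlap between lines. C57MG exceeded BC44 (log2 difference, BC44 minus C57MG, -0.58, adjusted p = 0.00237). Irf9 was at 0.825 and 0.617 RPKM in BC44, at 0.850 and 1.14 in HC11, and at 1.60 and 1.57 in C57MG, also without overlap. Its log2 difference between BC44 and C57MG was -0.59. The smaller HC11 to C57MG difference of Stat2 (-0.31, adjusted p = 0.0409) hung on single libraries. Its adjusted p was 0.227 without C57MG replicate 2, 0.111 without C57MG replicate 1 and 0.16 without HC11 replicate 1. Leaving out either BC44 library also ended the call (adjusted p = 0.0548 and 0.0549).

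Irf1, Irf2 and Irf5 had a different order, with BC44 below both other lines. Irf1, an activator of interferon gamma targets, was at 4.44 and 5.59 RPKM in BC44, at 14.7 and 16.9 in HC11, and at 16.7 and 20.1 in C57MG. HC11 and C57MG overlapped while BC44 was below both, by 1.48 ± 0.14 (log2, SE) against HC11 (adjusted p = 0.000138) and 1.69 ± 0.14 against C57MG (adjusted p = 2.23e-05). Irf2, which can oppose Irf1 at shared sites, was at 5.40 and 6.14 RPKM in BC44, at 13.8 and 12.8 in HC11, and at 12.7 and 13.7 in C57MG. HC11 and C57MG again overlapped, and BC44 was lower than HC11 by 1.08 (adjusted p = 0.000149). Irf5, best known from Toll-like receptor signalling in immune cells, was at 1.13 and 1.38 RPKM in BC44, at 3.39 and 3.39 in HC11, and at 2.31 and 2.97 in C57MG. BC44 was lower than HC11 by 0.96 (adjusted p = 0.000653) and lower than C57MG by 0.69 (adjusted p = 0.00165).

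Irf3, the constitutive factor that starts interferon beta transcription, was at 10.6 and 9.21 RPKM in BC44, at 11.1 and 8.32 in HC11, and at 7.29 and 7.16 in C57MG. Both C57MG libraries were below the others, and BC44 and HC11 overlapped. Its difference between BC44 and C57MG (0.40, adjusted p = 0.0345) was not called when any of those 4 libraries was left out (adjusted p = 0.177 and 0.0522 without BC44 replicates 1 and 2, 0.0931 and 0.11 without C57MG replicates 1 and 2). That between HC11 and C57MG (0.37, adjusted p = 0.0485) was lost in most alternatives, with an adjusted p up to 0.23 (without HC11 replicate 1). Irf7, the interferon-induced amplifier of the same pathway, was at 0.181 and 0.171 RPKM in BC44, at 0.125 and 0.092 in HC11, and at 0.843 and 0.730 in C57MG. It stayed under 1 RPKM in all libraries and was not tested, although both C57MG libraries were above the 4 others.

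The receptors and kinases upstream are outside the symbol pattern, and all 9 of the list were tested. Against C57MG, BC44 was lower in 7 (34.1% of all tested genes) and higher in 1 (37.5%), and against HC11 it was lower in 4 (23.0%) and higher in 0 (24.7%). The 4 are Ifnar1, Ifnar2, Il10rb and Ifngr2, which are also among the 7. All lie on chromosome 16, so their differences may not be independent of each other. The median log2 difference of the list, BC44 minus C57MG, was -1.08 (0.04 over all tested genes). Ifnar1, a chain of the type I receptor, was at 8.09 and 8.06 RPKM in BC44, at 11.99 and 10.8 in HC11, and at 17.8 and 18.5 in C57MG, with no overlap. Its partner chain Ifnar2 was at 3.45 and 3.89 RPKM in BC44, at 14.7 and 17.2 in HC11, and at 15.8 and 18.5 in C57MG. HC11 and C57MG overlapped for Ifnar2, and BC44 was below both (log2 difference from HC11 -1.86, adjusted p = 2.42e-05).

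The gamma receptor chains showed the same 2 orders. Ifngr1 was at 7.30 and 7.87 RPKM in BC44, at 10.7 and 8.58 in HC11, and at 36.3 and 37.0 in C57MG, and C57MG was higher than BC44 (log2 difference -2.13, adjusted p = 2.3e-06). Ifngr2 was at 4.34 and 5.80 RPKM in BC44, at 19.2 and 20.2 in HC11, and at 17.1 and 20.9 in C57MG. BC44 was below HC11 for Ifngr2 (-1.78, adjusted p = 6.65e-05), while HC11 and C57MG overlapped. Il10rb, shared by the receptors of interferon lambda and interleukin 10, was at 1.80 and 1.75 RPKM in BC44, at 4.81 and 6.60 in HC11, and at 7.75 and 8.99 in C57MG. It too was lowest in BC44. Ifnlr1, the specific chain of the lambda receptor, ran the other way, with 2.44 and 2.51 RPKM in BC44, 3.00 and 2.27 in HC11, but 0.013 and 0 in C57MG. It was lower in C57MG than in HC11 by 1.85 on the log2 scale (adjusted p = 6.9e-06). Interferon lambda is known to act mainly on epithelial cells, and a link of this to the Ifnlr1 level was not tested. Of the kinases, Jak1 was at 16.1 and 17.8 RPKM in BC44, at 20.2 and 18.8 in HC11, and at 33.6 and 34.9 in C57MG, higher in C57MG than in BC44 by 0.97 (adjusted p = 3.64e-05). Jak2 differed by -0.30 between BC44 and C57MG (adjusted p = 0.0444), which was lost when any library of either line was left out (0.18 and 0.0728 without BC44 replicates 1 and 2, 0.144 and 0.148 without those of C57MG), and Tyk2 was called in no contrast.

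**Figure D5:**
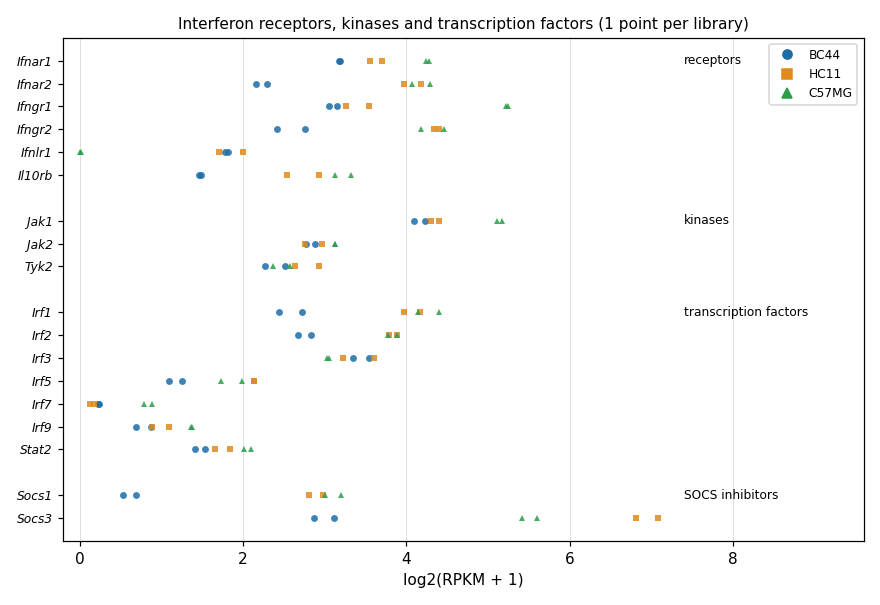
Levels of the interferon receptors, kinases, transcription factors and SOCS inhibitors in each library, as log2(RPKM + 1), with 1 point a library. BC44 points lie lowest for Ifnar2, Ifngr2, Il10rb, Irf1, Irf2, Socs1 and Socs3, and C57MG points lie at or near 0 for Ifnlr1.

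Isg15 is a ubiquitin-like protein that is joined to other proteins after interferon. It was at 1.54 and 1.21 RPKM in BC44, at 1.28 and 3.97 in HC11, and at 10.2 and 7.89 in C57MG. Both C57MG libraries were above the others, and HC11, whose libraries differed 3.10-fold, overlapped with BC44. C57MG was higher than BC44 by 2.07 ± 0.33 (log2, SE, adjusted p = 0.00077) and than HC11 by 1.57 ± 0.33 (adjusted p = 0.00347).

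Some IFIT proteins bind viral RNA that lacks host marks at its end. Ifit2 was at 11.7 and 10.5 RPKM in BC44, at 12.5 and 13.1 in HC11, and at 5.52 and 5.32 in C57MG. C57MG was the lowest line, by 0.91 ± 0.10 (log2, SE) against BC44 (adjusted p = 9.34e-05) and 1.11 ± 0.10 against HC11 (adjusted p = 3.67e-05), the reverse of Isg15. Ifit1 was at 0.103 and 0.043 RPKM in BC44, at 0.487 and 1.08 in HC11, and at 0.646 and 0.733 in C57MG. It reached 1 RPKM in a single library and was not tested. HC11 and C57MG overlapped, and BC44 was below both.

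The oligoadenylate synthetases make the messenger that activates RNase L. For all 5 members both C57MG libraries were above the 4 others. Oas1a was at 0.399 and 0.122 RPKM in BC44, at 0.714 and 0.185 in HC11, and at 2.47 and 2.03 in C57MG, and C57MG was higher than BC44 by 1.37 ± 0.19 (log2, SE). Oasl2 was at 0.106 and 0.044 RPKM in BC44, at 0.083 and 0.252 in HC11, and at 1.27 and 1.20 in C57MG, higher in C57MG than in BC44 by 1.06 ± 0.10. BC44 and HC11 overlapped for both genes, and neither was called between those lines. Both passed the filter only through C57MG.

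The other 3 synthetase genes were under the filter. Oas1c was at 0 and 0.119 RPKM in BC44, at 0.246 and 0.145 in HC11, and at 1.31 and 0.863 in C57MG. Oas1g was at 0.029 and 0 RPKM in BC44, at 0.138 and 0.060 in HC11, and at 0.993 and 1.03 in C57MG. Oas3 was at 0.013 and 0.011 RPKM in BC44, at 0.031 and 0 in HC11, and at 0.656 and 0.658 in C57MG. Oas1a, Oas1c, Oas1g and Oas3 lie within 154 kb on chromosome 5 and the Oas1 copies resemble each other, so their reads may be shared and their values are not independent. For the 17 tested genes within 1 Mb that are not members, the median log2 difference, BC44 minus C57MG, was 0.55. Around the other clusters this median was -2.89 (2 genes near the p200 cluster), -0.57 and -0.65 (3 and 9 genes near the guanylate-binding protein clusters of chromosomes 3 and 5), 0.22 (38 near the Ifitm genes) and 0.01 near both Parp9 and Ifi27 (14 and 11). The 2 genes near the p200 cluster, Mndal and Aim2, are themselves on the interferon gene lists described below. Their median is therefore not that of unrelated genes.

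Of the 6 other antiviral effectors, 3 were higher in C57MG than in BC44 (34.1% of all tested genes) and 0 higher in BC44 (37.5%). Helz2, a helicase and nuclear receptor coactivator, was at 0.575 and 0.423 RPKM in BC44, at 5.58 and 6.07 in HC11, and at 4.14 and 4.15 in C57MG. BC44 was below both lines, by 2.19 ± 0.11 (log2, SE) against HC11 (adjusted p = 5.75e-06) and 1.78 ± 0.11 against C57MG (adjusted p = 3.95e-06). The smaller HC11 to C57MG difference (0.41, adjusted p = 0.0102) was not called without C57MG replicate 1 (adjusted p = 0.0683) or replicate 2 (adjusted p = 0.0679). Samhd1, which breaks down deoxynucleotides, was at 8.84 and 9.33 RPKM in BC44, at 9.36 and 11.98 in HC11, and at 15.9 and 16.4 in C57MG, highest in C57MG (log2 difference from BC44 -0.77, adjusted p = 0.000812). Xaf1, which promotes cell death, ranged from 0.208 RPKM in BC44 to 1.55 in C57MG, with the 3 lines in order and without overlap. It was higher in C57MG than in BC44 by 0.89 on the log2 scale, and it passed the filter only with C57MG. Bst2 encodes tetherin, which holds budding virus at the cell surface, and was at 38.8 and 23.6 RPKM in BC44, at 47.5 and 41.0 in HC11, and at 28.9 and 31.2 in C57MG. BC44 spanned the C57MG values (log2 difference 0.01, SE 0.20), and HC11 was higher than C57MG (0.54, adjusted p = 0.0452). That call was lost when any HC11 library (adjusted p = 0.159 and 0.0546 without replicates 1 and 2) or C57MG library (0.136 and 0.081) was left out. With all 6 libraries kept, the Bst2 call was also lost under another pseudocount, scaling or variance model (adjusted p = 0.053 to 0.0777). Subtraction of another line's signal ended it too (adjusted p = 0.054). Isg20, an exonuclease, ranged from 7.25 to 10.4 RPKM over the 6 libraries, and Rtp4 from 0.947 to 2.19.

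The IFITM proteins block virus entry at membranes and Ifitm2 and Ifitm3 were the most abundant members. Ifitm3 was at 228 and 233 RPKM in BC44, at 427 and 418 in HC11, and at 353 and 370 in C57MG. No lines overlapped, and HC11 was higher than BC44 by 0.87 ± 0.07 (log2, SE, adjusted p = 6.53e-05) and than C57MG by 0.22 ± 0.07 (adjusted p = 0.0227). The difference from C57MG was not called without C57MG replicate 1 (adjusted p = 0.159) or replicate 2 (adjusted p = 0.0729), and it reversed to -0.03 after quantile normalization (adjusted p = 0.674). Ifitm2 was at 188 and 184 RPKM in BC44, at 236 and 202 in HC11, and at 300.5 and 317 in C57MG, highest in C57MG (log2 difference from BC44 -0.73, adjusted p = 0.000222). Ifitm2 and Ifitm3 are close copies on chromosome 7, so part of their reads may be exchanged. Ifitm10, a more distant relative, was at 3.19 and 2.31 RPKM in BC44, at 1.46 and 0.904 in HC11, and at 2.21 and 2.75 in C57MG. HC11 was lowest for Ifitm10, which was higher in BC44 than in HC11 (0.78, adjusted p = 0.00795, and 0.061 without BC44 replicate 1).

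The guanylate-binding proteins are GTPases that attack intracellular pathogens. Of 5 tested, 4 were higher in C57MG than in BC44 (34.1% of all tested genes) and 1 was higher in BC44 (37.5%). Among the 4, Gbp3, Gbp4 and Gbp9 passed the filter only with C57MG. Gbp2 was at 1.66 and 1.98 RPKM in BC44, at 7.73 and 18.9 in HC11, and at 8.20 and 11.3 in C57MG. The HC11 libraries enclosed those of C57MG, and BC44 was below both lines, by 2.23 ± 0.35 (log2, SE) against HC11 (adjusted p = 0.00162) and 1.92 ± 0.35 against C57MG (adjusted p = 0.00165). Gbp2b, its neighbour within the 108 kb cluster on chromosome 3, was at 0.792 and 1.16 RPKM in BC44, at 3.08 and 8.66 in HC11, and at 0.018 and 0 in C57MG. It was highest in HC11 and lowest in C57MG, with a difference between HC11 and C57MG of 2.64 ± 0.35. Gbp2 and Gbp2b carry the same ISRE core letters, TTTCACTTTC, starting at -59 and -137 from the start site. The difference of Gbp2b between BC44 and C57MG (0.96, adjusted p = 0.0374) was not called when any library of either line was left out (adjusted p = 0.0866 and 0.17 without BC44 replicates 1 and 2, 0.0863 and 0.0944 without C57MG replicates 1 and 2). That call was also lost after quantile normalization (adjusted p = 0.061) and with a robust variance model (adjusted p = 0.0796). The difference of Gbp2b between BC44 and HC11 was -1.68.

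The remaining 4 guanylate-binding protein genes were low. Gbp3 was at 0.169 and 0.124 RPKM in BC44, at 0.399 and 0.625 in HC11, and at 1.49 and 1.64 in C57MG. The lines did not overlap, and C57MG was higher than BC44 by 1.16 ± 0.11 (log2, SE). Its difference between BC44 and HC11 (-0.40, adjusted p = 0.0191) was lost without BC44 replicate 1 (0.064), BC44 replicate 2 (0.0922) or HC11 replicate 2 (0.0971), each an adjusted p. Quantile normalization also ended this Gbp3 call (adjusted p = 0.134). Gbp4 was at 0 and 0.013 RPKM in BC44, at 0.059 and 0.108 in HC11, and at 1.27 and 1.22 in C57MG. Gbp9, its neighbour on chromosome 5, was at 0 and 0.016 RPKM in BC44, at 0.117 and 0.378 in HC11, and at 2.46 and 3.36 in C57MG. Both were highest in C57MG, by 1.16 and 1.94 on the log2 scale over BC44. In BC44, Gbp4 was at 0% and 1.05% and Gbp9 at 0% and 0.551% of the C57MG mean, at or below the 0.666% and 2.017% of genes high only in C57MG. Gbp7 was at 0.012 and 0.041 RPKM in BC44, at 0.388 and 0.427 in HC11, and at 0.448 and 0.444 in C57MG, too low to be tested.

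The IFI proteins included the largest differences among the members. Of 9 tested, 7 were higher in C57MG than in BC44 (34.1% of all tested genes) and 2 were higher in BC44 (37.5%). Against HC11 7 were higher in C57MG (33.2%) and 2 in HC11 (37.4%). Among the 7, Ifi205, Ifi27l2a and Ifi44 passed the filter only with C57MG. Ifi202b, Ifi203, Ifi204 and Ifi205 are p200 proteins, which bind DNA, and their genes lie within 285 kb on chromosome 1. Ifi204 was at 5.04 and 6.82 RPKM in BC44, at 7.55 and 8.49 in HC11, and at 90.8 and 76.6 in C57MG. C57MG was higher than BC44 by 3.62 ± 0.15 (log2, SE, adjusted p = 5.83e-07). Ifi202b ran the other way, with 45.01 and 48.5 RPKM in BC44, 29.8 and 38.6 in HC11, but 0.339 and 0 in C57MG, higher in BC44 than in C57MG by 5.37 ± 0.17 (adjusted p = 2.91e-07). Its level in C57MG was 0.725% and 0% of that in BC44, against medians of 0.729% and 0.0% for genes high only in BC44.

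Ifi205 was at 0 and 0.178 RPKM in BC44, at 0.334 and 0.173 in HC11, and at 6.66 and 8.81 in C57MG, higher in C57MG than in BC44 by 3.00 on the log2 scale. BC44 and HC11 overlapped, and the BC44 values were 0% and 2.3% of the C57MG mean, near those of genes high only in C57MG. Ifi203 was at 0.337 and 0.427 RPKM in BC44, at 1.10 and 1.97 in HC11, and at 5.61 and 6.16 in C57MG. The lines did not overlap, and all 3 contrasts were called (BC44 minus HC11 -0.85, adjusted p = 0.00444). The p200 genes resemble each other and may share reads, so each of these values is uncertain. Within the cluster, Ifi202b was high in the lines where its 3 neighbours were low.

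Ifi27 and Ifi27l2a lie within 9 kb on chromosome 12. Ifi27l2a was at 1.03 and 0.743 RPKM in BC44, was listed at 0 in both HC11 libraries, and was at 25.8 and 26.1 RPKM in C57MG. C57MG was higher than BC44 by 3.84 ± 0.11 (log2, SE), and no fold is given against HC11. Ifi27 was at 10.7 and 7.19 RPKM in BC44, at 9.25 and 6.71 in HC11, and at 22.4 and 24.9 in C57MG. BC44 and HC11 overlapped, and C57MG was higher than BC44 by 1.33 ± 0.20 (adjusted p = 0.000557). Ifi44 was at 0.078 and 0.047 RPKM in BC44, at 0.009 and 0 in HC11, and at 2.17 and 1.98 in C57MG, higher in C57MG than in BC44 by 1.53. Ifi35 ranged from 9.26 to 12.6 RPKM over BC44 and HC11 and was at 18.5 and 20.3 in C57MG. Ifi30, the lysosomal thiol reductase GILT of antigen processing, had the opposite order, with 100.1 and 84.3 RPKM in BC44, 82.1 and 68.9 in HC11, but 49.97 and 41.4 in C57MG. BC44 was higher than C57MG for Ifi30 by 1.00 ± 0.13 (adjusted p = 0.000316).

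The interferon-inducible PARPs attach ADP-ribose to proteins. Of 5 tested, 3 were higher in HC11 than in BC44 (23.0% of all tested genes) and 0 lower (24.7%), and 4 were higher in C57MG than in BC44 (34.1%) and 1 lower (37.5%). Parp10 was at 0.560 and 0.630 RPKM in BC44, at 3.89 and 4.02 in HC11, and at 12.1 and 13.6 in C57MG. The lines did not overlap, and all 3 differences were called (-1.64, -3.11 and -1.48 for BC44 minus HC11, BC44 minus C57MG and HC11 minus C57MG, adjusted p = 2.19e-05, 3.21e-07 and 1.16e-05). Parp12 was at 2.28 and 2.18 RPKM in BC44, at 8.75 and 9.21 in HC11, and at 13.01 and 15.4 in C57MG, also in order without overlap (BC44 minus HC11 -1.63, adjusted p = 2.96e-05). Parp14 was at 0.154 and 0.234 RPKM in BC44, at 2.38 and 2.45 in HC11, and at 3.03 and 4.88 in C57MG. BC44 was below HC11 by 1.52 ± 0.17 (log2, SE, adjusted p = 0.000355). Its difference between HC11 and C57MG (-0.51, adjusted p = 0.0302) was lost when any library but C57MG replicate 1 was left out, with an adjusted p of 0.0537 to 0.251, the highest without C57MG replicate 2.

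Parp9, which lies next to Parp14 on chromosome 16, was at 5.38 and 6.13 RPKM in BC44, at 7.36 and 6.09 in HC11, and at 9.72 and 11.2 in C57MG. BC44 and HC11 overlapped for Parp9, unlike for Parp14, and the log2 difference between them was -0.19 ± 0.13 (SE). Parp11 was at 1.22 and 1.09 RPKM in BC44, at 1.08 and 1.17 in HC11, and at 0.706 and 0.510 in C57MG, lowest in C57MG (BC44 minus C57MG 0.43, adjusted p = 0.00719, and 0.118 without C57MG replicate 2).

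The group of other PARPs and Isg20l2 came in by name and divided in direction. Of 8 tested, 5 were higher in C57MG than in BC44 (34.1% of all tested genes) and 1 lower (37.5%). Parp8 was at 0.310 and 0.371 RPKM in BC44, at 12.3 and 17.1 in HC11, and at 9.80 and 10.1 in C57MG. BC44 was lower than HC11 by 3.53 ± 0.15 (log2, SE, adjusted p = 3.59e-06) and lower than C57MG by 3.03 ± 0.15 (adjusted p = 1.61e-06), the largest difference between BC44 and HC11 among the tested members. Its difference between HC11 and C57MG (0.50, adjusted p = 0.0192) was lost without HC11 replicate 2 (adjusted p = 0.0672), C57MG replicate 1 (adjusted p = 0.0773) or C57MG replicate 2 (adjusted p = 0.0615).

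Parp3, a DNA repair enzyme, was at 4.59 and 3.64 RPKM in BC44, at 5.05 and 4.51 in HC11, and at 23.6 and 22.99 in C57MG, higher in C57MG than in BC44 by 2.25 (log2, adjusted p = 2.25e-06). Parp6 had the opposite order, with 13.2 and 12.7 RPKM in BC44, 7.44 and 6.25 in HC11, but 3.77 and 3.97 in C57MG (BC44 minus C57MG 1.52, adjusted p = 1.08e-05). Parp4, a part of cytoplasmic vault particles, was at 2.71 and 2.23 RPKM in BC44, at 5.68 and 5.73 in HC11, and at 6.83 and 6.74 in C57MG, lower in BC44 than in C57MG by 1.17 (adjusted p = 4.25e-05). Parp2 ranged from 15.4 to 17.4 RPKM in BC44 and HC11 and was at 27.3 in both C57MG libraries. Parp16 was at 2.59 to 2.89 RPKM in BC44, 3.99 to 4.53 in HC11 and 5.30 to 6.50 in C57MG. The main DNA break sensor Parp1 ranged from 47.4 to 56.8 RPKM and Isg20l2 from 20.1 to 23.9 over the 6 libraries.

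The lists outside the symbol pattern were read in the same way. Of 85 further interferon-stimulated genes 63 were listed and 60 tested. Between BC44 and C57MG 43 were higher in C57MG (34.1% of all tested genes) and 5 in BC44 (37.5%), with a median log2 difference of -1.29 (0.04 over all tested genes). Between HC11 and C57MG 45 were higher in C57MG (33.2%) and 10 in HC11 (37.4%), and between BC44 and HC11 29 were higher in HC11 (23.0%) and 7 in BC44 (24.7%). Of the 60, 18 passed the filter only with C57MG and all were called higher there, which leaves 25 of the 43 and 27 of the 45. The median includes these 18. Trim14 passed only with HC11, which leaves 28 of the 29 and 9 of the 10. The list was chosen with results of these libraries known and is not independent evidence of direction. H2-D1, a class I histocompatibility gene, was at 0.610 and 1.02 RPKM in BC44, at 2.13 and 2.73 in HC11, and at 42.4 and 43.9 in C57MG. Other class I genes of the list had other orders. The mean of H2-K1 was highest in HC11 (15.3 RPKM, against 8.08 in C57MG). That of H2-T23 was lowest in C57MG (2.07 RPKM, against 5.63 in BC44 and 5.98 in HC11). Slfn2, which limits lymphocyte growth, was at 0 and 0.103 RPKM in BC44, at 42.4 and 50.1 in HC11, and at 5.75 and 6.51 in C57MG. It was highest in HC11 (HC11 minus C57MG 2.73, adjusted p = 1.22e-06). Apol9a was at 1.57 and 1.42 RPKM in BC44, at 0.274 and 0.621 in HC11, and at 27.0 and 34.3 in C57MG.

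Of the 14 negative regulators tested, 7 were higher in C57MG than in BC44 (34.1% of all tested genes) and 5 lower (37.5%), and 4 were higher in HC11 than in BC44 (23.0%) and 5 lower (24.7%). Nlrc5, among the 7, passed the filter only with C57MG. Socs1, an inhibitor of the receptor kinases, was at 0.448 and 0.611 RPKM in BC44, at 6.00 and 6.92 in HC11, and at 8.16 and 7.02 in C57MG. Socs3, an inhibitor of cytokine receptors that use gp130, was at 7.64 and 6.28 RPKM in BC44, at 112 and 135 in HC11, and at 41.8 and 47.7 in C57MG. BC44 was lowest for both, by 2.29 (adjusted p = 1.02e-05) and 3.96 (adjusted p = 1.44e-06) on the log2 scale against HC11. Samd9l, a restrictor of cell growth and viruses, was at 0.870 and 0.887 RPKM in BC44, at 6.38 and 7.81 in HC11, and at 11.5 and 10.9 in C57MG.

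Of 17 genes that act in nucleic acid sensing upstream of interferon 12 were tested, of which 7 were higher in C57MG than in BC44 (34.1% of all tested genes) and 2 lower (37.5%). Of the 7, Tmem173 and Aim2 passed the filter only with C57MG. Ikbke and Zbp1 passed only with HC11. Tmem173, which encodes STING, the adaptor of cytosolic DNA sensing, was at 0.713 and 0.722 RPKM in BC44, at 0.936 and 1.70 in HC11, and at 22.6 and 22.8 in C57MG. C57MG was higher than BC44 by 3.79 ± 0.16 (log2, SE). Ikbke, a kinase that activates IRF3, was at 0.819 and 0.648 RPKM in BC44, at 5.59 and 7.10 in HC11, and at 0.742 and 0.928 in C57MG. BC44 and C57MG overlapped, and HC11 was higher than C57MG by 2.00 ± 0.13. Aim2, a DNA sensor of the inflammasome, was at 0 and 0.016 RPKM in BC44, at 0.138 and 0.319 in HC11, and at 1.69 and 1.87 in C57MG. The 21 interferon ligand genes of the list were not analysed here.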

How the data were processed

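Poly(A) RNA of 3 cell lines, 2 libraries each, was analysed from the table of RPKM values that the authors deposited. Reads were aligned with STAR and the build was mm9, per the submitters' processing notes. The read counter, the gene lengths, the use of strand and the rule for listing genes are not given in the sources used here. Genes that share sequence (the p200, Gbp, Oas1, Ifitm and Ifi27 families) may share reads.

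The symbol pattern that chose the members, and the other lists, were written with earlier results of these data known. Members were named by role, except 2 that are counted but not reported here. Values in every library were given for members whose mean reached 1 RPKM in a line with a called log2 difference of at least 1, for the sensors and for the main transcription factors. Further members were given in full after their values were seen. Of the other lists, the receptors and kinases and the 3 genes with the largest differences were named by rule. A few more genes of these lists were named after their values were seen.

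Depth was estimated from the steps between low values, of which 73.5% to 84.2% lay within 0.15 of a whole read, against 30.0% by chance. The deposited RPKM, plus 1 and as log2, were compared by limma 3.58.1 in R 4.3.3 (trend, 6 libraries in 1 model, two-sided, Benjamini-Hochberg adjustment within each of 3 contrasts, threshold 0.05). Genes needed at least 1 RPKM in at least 2 libraries. The model was tested on simulated data. An exact permutation test of 2 against 2 libraries cannot give a p under 0.33 and was not used. Promoter windows are RefSeq's, build GRCm38.p6, and cluster positions are from GENCODE release M21. The alternatives are another pseudocount, filter, scaling or variance model, the 4 libraries compared alone, a replicate block, subtraction of another line's signal, and leaving out each library. Other steps used Python 3.11.15 with pandas 2.3.3 and matplotlib 3.10.9.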

Additional observations from a re-analysis of the deposited data

How the results depend on the processing

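Across 16 alternatives, the 144 called differences of members and of the pathway genes named by rule gave 2195 values. Of these 2109 kept their direction and call, 85 kept their direction but lost the call, and 1 reversed, Ifitm3 between HC11 and C57MG with quantile normalization (-0.03). The cause was not tested. A difference whose gene fell out of a filter gave no value there, so it is not counted among the lost calls. At a mean of at least 5 RPKM, 87 of the 144 gave a value. With genes of a mean of at least 5 RPKM alone, so with fewer members tested, 8 members were higher in HC11 than in BC44, 17 were higher in C57MG than in BC44, and 12 were higher in C57MG than in HC11. Leaving out each library gave 2 to 4 members higher in BC44 than in HC11, 5 to 8 higher in BC44 than in C57MG, 26 to 36 higher in C57MG than in BC44, 7 to 13 higher in HC11 than in C57MG, and 14 to 26 higher in C57MG than in HC11. The deviations of same-numbered libraries correlated over genes by 0.354 for BC44 with HC11, and by -0.039 and 0.038 for the other pairs of lines. The labels name no shared batch, so the numbers were not taken as pairing. With the replicate block, 4 and 19 members were higher in BC44 and HC11, 9 and 35 in BC44 and C57MG, and 14 and 28 in HC11 and C57MG. With no filter all 57 members were tested, and 42 were higher in C57MG than in BC44 and 8 lower. Members under 1 RPKM rest on few reads, and 2 libraries a line limit every error given.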

Other observations

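Of the 39 members whose mean in HC11 reached 1 RPKM, 5 differed at least 1.5-fold between the 2 HC11 libraries, against 622 of 9903 genes (6.28%). Gbp2 (2.45-fold), Gbp2b (2.81-fold), Ifi203 (1.79-fold) and Isg15 (3.10-fold) were higher in replicate 2, and Ifitm10 (1.62-fold) was higher in replicate 1. In BC44 2 of 33 members and in C57MG 2 of 48 differed as much, against 3% and 1.72% of all genes.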
